A study of Mus musculus with 4 samples.

Results

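Stool of mice given vancomycin by vein was compared directly with stool of mice given ampicillin by vein. The samples were taken from the authors' sample sheets as all day 4 libraries of route IV (into a vein) with vancomycin, 6 libraries of 6 mice, and with ampicillin, 5 libraries. Ampicillin replicates 3 and 4 did not differ past the sampling noise in a chi-square test of their counts (chi-square per degree of freedom 1.29, p = 0.153), unlike every other ampicillin pair, and were averaged and counted as 1 sample, so that 4 ampicillin samples remained and 10 samples, from 11 of the 198 libraries of the series, entered the comparison. All mice were wild type (WT) C57BL6/J animals aged 8 to 12 weeks. Each dose of either antibiotic held 2.5 mg in 100 µl of phosphate-buffered saline (PBS), given 2 times a day for 3 days with a last dose on day 4, and the 6 intravenous PBS mice, used here as the level without antibiotic, received the same volume without drug. The study as a whole tested 4 antibiotics and their mix by 3 routes, with stool taken at day 0 and day 4. The labels do not give cages, so p-values measure the spread between mice that may have shared one.

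Vancomycin is a glycopeptide that binds the D-Ala-D-Ala end of peptidoglycan precursors. It is too large to pass the outer membrane of most Gram-negative bacteria, which makes Gram-positive bacteria its main targets, and after injection it leaves the body mostly through the kidney. Ampicillin is a beta-lactam that inactivates the transpeptidases that cross-link peptidoglycan, acts on Gram-positive and many Gram-negative bacteria, and is partly secreted into bile. Mouse stool is dominated by Bacteroidota, chiefly Muribaculaceae (fibre and mucin glycan degraders) and Prevotella, beside Gram-positive fermenters of the Lachnospiraceae and Oscillospiraceae.

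Bacteria were measured as percent of reads of the V4 stretch of the 16S rRNA gene. Recovered depth was 7877 to 153407 reads in the vancomycin libraries, 3621 to 29766 in the ampicillin libraries and 8556 to 38424 in the PBS libraries. A taxon listed at 0 can therefore lie below an upper limit, the level of 3 reads, of 0.00196% to 0.0381% in vancomycin samples and 0.0101% to 0.0829% in ampicillin samples. These limits cover counting error only and take a listed 0 as 0 reads. Single reads had been left out of 183 of the 198 libraries, so a 0 can also stand for 1 read and the limits can be higher. Vancomycin replicates 1, 2 and 3 were sequenced in run ok122 together with all ampicillin samples, and vancomycin replicates 4, 5 and 6 in run SB1. Run SB1 held no intravenous ampicillin sample, so only run ok122 gives a value within a run.

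The samples of each drug differed widely among themselves in the genera that led them. In vancomycin replicates 1, 4, 5 and 6 the 3 genera Parabacteroides_B_862066, Bacteroides_H and Escherichia_710834 together made up 94.4%, 94.2%, 82.7% and 95.9% of reads. Parabacteroides_B_862066 led replicates 1, 4 and 5, and Bacteroides_H led replicate 6 (45.8%). Vancomycin replicates 2 and 3 were led instead by Duncaniella, a Muribaculaceae genus, at 17.9% and 33.9% of reads. Among ampicillin samples the leading genus was Phocaeicola_A_858004 in replicate 1 (39.8%), CAG-485 in replicate 2 (24.7%), Bacteroides_H in the average of replicates 3 and 4 (28.0%) and UBA7173 in replicate 5 (57.0%). In intravenous PBS samples Prevotella, Duncaniella or CAG-485 led.

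**Figure D1:**
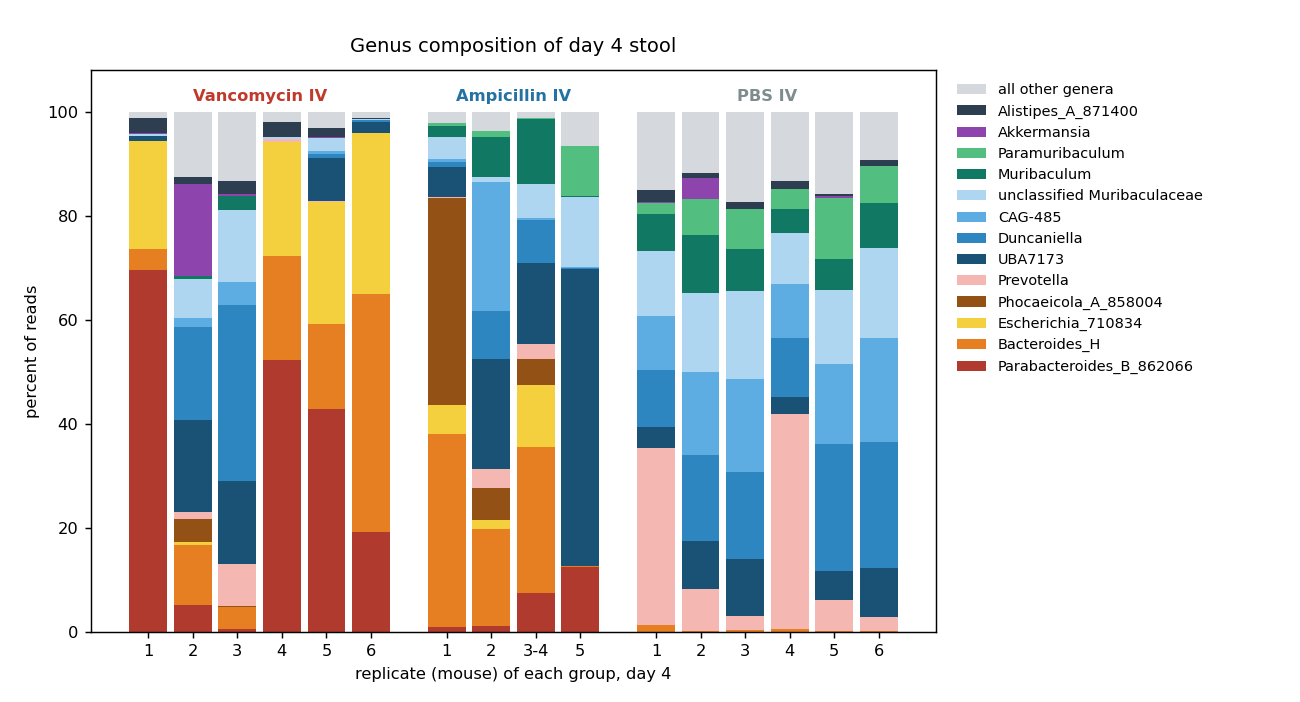
Percent of reads (vertical axis) of 13 genera and of all others in each day 4 sample of the intravenous vancomycin, ampicillin and PBS groups, 1 bar per mouse, with ampicillin replicates 3 and 4 averaged. Red, orange and yellow (Parabacteroides_B_862066, Bacteroides_H, Escherichia_710834) fill most of vancomycin replicates 1, 4, 5 and 6, while blue and green Muribaculaceae genera fill much of vancomycin replicates 2 and 3, of ampicillin replicates 2 and 5 and of PBS samples.

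The Bray-Curtis distance runs between 0 for equal and 1 for entirely different compositions. It uses the same genus shares by which these sets of vancomycin samples were told apart. Its values therefore describe the sets and do not test them. The distance among vancomycin replicates 1, 4, 5 and 6 was 0.318 ± 0.143 (SD, 6 pairs) and to replicates 2 and 3 it was 0.833 ± 0.0855 (SD, 8 pairs). Between replicates 2 and 3 it was 0.430. Replicate 1 shared its run with replicates 2 and 3 but lay with the samples of the other run. Distances averaged 0.600 within the vancomycin group, 0.620 within the ampicillin group and 0.297 within the PBS group, against 0.690 between vancomycin and ampicillin samples. The share of the squared distances between the 10 samples that went with the drug, R2, was 0.182, which did not pass an exact permutation of labels (p = 0.148, adjusted p = 0.428 over the 3 single-value tests). Presence alone passed the same test. On the Jaccard distance between lists of genera R2 was 0.236, with an exact permutation p of 0.00476, the smallest that 210 labelings can give, and an adjusted p of 0.0143. Depth, which moves with the drug here, can set which genera are listed, and its part in this value was not tested. Without vancomycin replicates 2 and 3, a choice made after seeing the data, the Bray-Curtis R2 was 0.462 (exact permutation p = 0.0286, adjusted p = 0.0857). This p is the smallest that 4 against 4 samples can give. Leaving out samples because they lay apart tends to raise R2, so this value is not a test of the drugs.

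Diversity within a sample did not separate the drugs. The Shannon index at genus level was 0.966, 1.45 and 2.42 (lowest, median and highest) in vancomycin samples, against 1.54, 2.07, 2.10 and 1.38 in ampicillin samples. It lay between 2.22 and 2.61 in PBS samples, so 4 of 6 vancomycin samples and all 4 ampicillin samples were below every PBS sample. The means were 1.64 ± 0.608 with vancomycin (SD, n = 6) and 1.77 ± 0.366 with ampicillin (SD, n = 4), a difference of -0.13 (two-sided exact permutation p = 0.705, adjusted p = 0.705). Counted over families in place of genera the difference had the other sign, 0.35, with an exact permutation p of 0.0571 and an adjusted p of 0.171. The samples of run ok122 alone also gave the other sign, 0.13, with an exact permutation p of 0.800. After every library was thinned to 1000 reads, vancomycin samples held 12 to 38 genera and ampicillin samples 11 to 17, with means of 20.7 and 14.3, against 32 to 51 in PBS samples. The difference between the drugs of 6.42 genera did not pass (two-sided exact permutation p = 0.314). Vancomycin replicates 2 and 3 held the most, 28 and 38 genera.

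Of 95 genera tested with limma, 4 passed an adjusted p of 0.05 between intravenous vancomycin and intravenous ampicillin, 4.21% of those tested, and 9 had an unadjusted p below 0.05. Higher with vancomycin were Alistipes_A_871400 and Mailhella. Lower with vancomycin were Paramuribaculum and Muribaculum, both of the Muribaculaceae. All 4 are of Gram-negative phyla, which held 25 of the 95 tested genera, against 62 of Gram-positive phyla. Of the 95, 37 were listed at 0 in every sample of both drugs, so their difference was 0 from the outset. The 4 are therefore not a result about the type of envelope. The median log2 difference over the 95 genera was 0, a value that these 37 help to set. The test was on log2(percent + 0.01), a scale that understates the change of rare genera, and its spread was estimated over all day 4 groups. On centred log ratios every difference shifted by -0.28. With the 10 samples alone in the fit, 2 genera passed, Alistipes_A_871400 and Paramuribaculum.

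Alistipes_A_871400, of the Rikenellaceae, bile-tolerant anaerobes that ferment amino acids, set the drugs apart most plainly. Its lowest, median and highest shares were 0.0562%, 2.12% and 2.99% of reads in vancomycin samples. It was listed at 0 in each of the 4 ampicillin samples. All 6 vancomycin samples were thus above all ampicillin samples. The lowest of them, replicate 6, was below the 0.0829% that a 0 allows in the shallowest ampicillin library, replicate 2. In PBS samples the share was 0.375% to 2.37%, and vancomycin samples did not differ from them past the threshold (log2 0.11, adjusted p = 0.945 by limma), whereas ampicillin samples were lower (-6.81, adjusted p = 2.1e-05). Between the drugs the fitted log2 difference was 6.92 ± 1.21 (SE; limma adjusted p = 1.4e-05). Because 1 group was at 0, this value depends on the pseudocount, and it lay between 3.86 and 10.2 over all alternatives, with an adjusted p of at most 0.00714. At day 0 the same genus was listed in 5 of 6 mice of the vancomycin group, at 0.692% ± 0.600 (SD), and in 6 of 6 mice of the ampicillin group, at 0.867% ± 0.708 (SD). The ampicillin group had 5 libraries at day 4, so its day 0 set is not the set compared at day 4.

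Mailhella, a genus of the Desulfovibrionaceae, was a minor genus. Its share was 0.322%, 0.170%, 0%, 0.331%, 0.274% and 0.333% in vancomycin replicates 1 to 6. The ampicillin samples had 0%, 0%, 0.0379% and 0%. In PBS samples it reached at most 0.0307%. So 5 of 6 vancomycin samples were above all ampicillin and all PBS samples, and replicate 3 was at 0. The log2 difference between the drugs was 3.47 ± 0.80 (SE; limma adjusted p = 0.00116), and that between vancomycin and PBS was 3.54 (adjusted p = 5.6e-05). Within run ok122 the first was 2.51 with an adjusted p of 0.104, and with the 10 samples alone in the fit its adjusted p was 0.350.

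Paramuribaculum was at or near 0 after vancomycin and listed in every sample after ampicillin. Of the vancomycin samples, 4 were at 0 and the others, replicates 4 and 5, held 0.0188% and 0.0215%. The ampicillin samples held 0.673%, 1.10%, 0.189% and 9.58%. The groups did not overlap. PBS samples held 2.27% to 11.7%. The species of the genus did not all remain with ampicillin. Paramuribaculum intestinale was listed at 0 in all 4 ampicillin samples, against 1.70% to 4.36% in PBS samples. The log2 difference between the drugs was -6.25 ± 1.24 (SE; limma adjusted p = 0.00012), and the adjusted p was at most 0.00714 in all alternatives, the fit within run ok122 and that of the 10 samples alone included.

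Muribaculum, a relative described from the mouse intestine, held 0%, 0.539%, 2.67%, 0%, 0.0209% and 0% in vancomycin replicates 1 to 6. It held 2.02%, 7.76%, 12.5% and 0.272% in the ampicillin samples, and 4.55% to 11.2% in PBS samples. Vancomycin replicates 2 and 3 overlapped the lowest ampicillin sample, and replicate 3 also the next. The log2 difference between the drugs was -5.51 ± 1.41 (SE; limma adjusted p = 0.00431). It did not pass within run ok122 (-3.48, adjusted p = 0.208), with run as a block (-4.02, adjusted p = 0.0822), with the 10 samples alone (adjusted p = 0.350) or without the average of ampicillin replicates 3 and 4 (-4.78, adjusted p = 0.0612). In run ok122 the vancomycin samples include replicates 2 and 3.

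**Figure D2:**
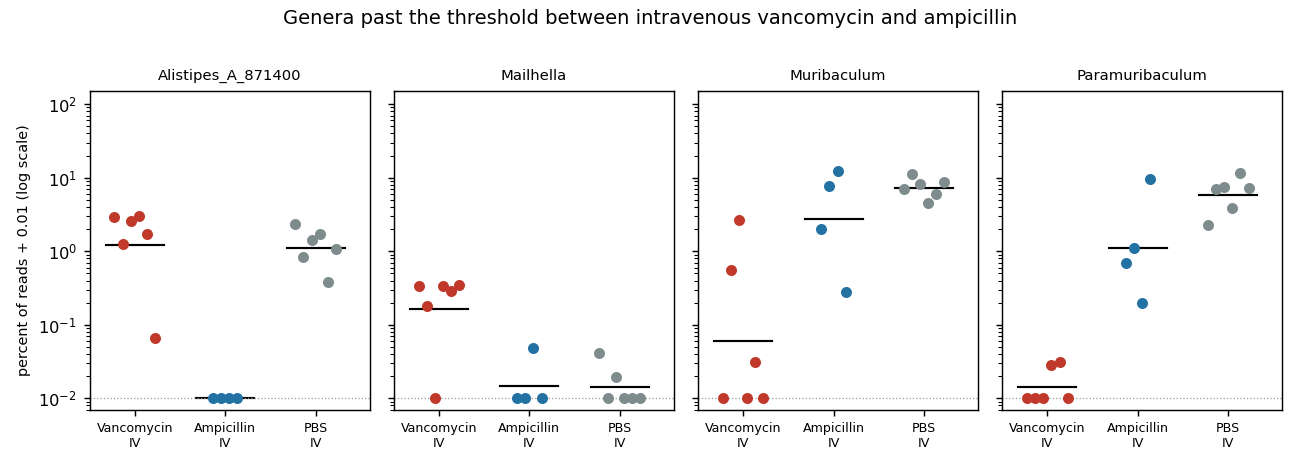
Percent of reads plus 0.01 on a log axis for the 4 genera past the threshold, with 1 point per sample for intravenous vancomycin, ampicillin and PBS. Horizontal bars are means on the log scale and the dotted line is the value of a genus listed at 0. Alistipes_A_871400 lay on that line in all 4 ampicillin samples and Paramuribaculum lay at or near it in all 6 vancomycin samples.

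In the Muribaculaceae, 2 of 8 tested genera were lower with vancomycin than with ampicillin, 0 were higher and 6 did not pass. Over all 95 tested genera 4 passed (4.21%), these 2 among them. The median log2 difference of the 8 was -1.83, and all 8 were listed with each drug. The median of 0 over all 95 genera includes 37 listed at 0 in every sample of both drugs, so the 2 medians are not alike. The summed share was 1.25%, 49.8%, 73.5%, 0.404%, 12.3% and 2.67% in vancomycin replicates 1 to 6, against 14.4%, 65.5%, 43.4% and 80.8% in ampicillin samples and 45.7% to 90.1% in PBS samples. Vancomycin replicates 1, 4, 5 and 6 were below every ampicillin sample, and replicates 2 and 3 lay within the ampicillin range. Tested as a family, the Muribaculaceae did not pass between the drugs (log2 -2.76, limma adjusted p = 0.226). UBA7173 held 0.87%, 17.7%, 15.9%, 0.0329%, 8.12% and 2.12% in vancomycin replicates 1 to 6, and 5.76%, 21.1%, 15.6% and 57.0% in ampicillin samples (log2 -2.93, adjusted p = 0.480 by limma). Duncaniella held 0.0212% to 33.9% with vancomycin and 0.262% to 9.25% with ampicillin (log2 -1.25, adjusted p = 1), and CAG-485 held 0.0259% to 4.42% and 0.225% to 24.7% (log2 -1.85, adjusted p = 1). Intervals were wide: the 95% interval of the Duncaniella difference ran between -4.31 and 1.81.

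Set against PBS, 40 of 95 genera passed with vancomycin (42.1%; 4 higher and 36 lower) and 40 of 95 with ampicillin (42.1%; 5 higher and 35 lower). These comparisons share the PBS samples. Among the 8 Muribaculaceae genera, 7 were lower than PBS with vancomycin and 3 with ampicillin. Of the 27 tested Lachnospiraceae genera, 12 were lower with vancomycin and 13 with ampicillin, and of the 14 tested genera of the Oscillospiraceae and relatives 8 were lower with each drug.

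Parabacteroides_B_862066, Bacteroides_H and Escherichia_710834 were higher than PBS with both drugs and did not pass between them. Mailhella was also higher than PBS with vancomycin, and Phocaeicola_A_858004 and Ligilactobacillus were with ampicillin. Parabacteroides_B_862066, saccharolytic Bacteroidales of the Tannerellaceae, held 69.5%, 5.23%, 0.521%, 52.2%, 42.9% and 19.1% in vancomycin replicates 1 to 6, and 0.972%, 1.19%, 7.52% and 12.4% in ampicillin samples, against at most 0.0536% in PBS samples. In 4 of 6 vancomycin samples the share was above every ampicillin sample. The log2 difference was 2.13 ± 1.48 (SE; limma adjusted p = 0.966). Escherichia_710834, facultative anaerobes of the Enterobacteriaceae, held 20.8%, 0.579%, 0%, 22.0%, 23.4% and 31.0% with vancomycin and 5.57%, 1.82%, 11.9% and 0% with ampicillin. Here too 4 of 6 vancomycin samples were above every ampicillin sample (log2 1.75 ± 1.66 SE; limma adjusted p = 1), and it was listed in 1 of 6 PBS samples. Bacteroides_H, degraders of plant and host glycans, held 4.11% to 45.8% with vancomycin and 37.1%, 18.6%, 28.0% and 0.185% with ampicillin (log2 0.62, 95% interval -2.28 to 3.52, adjusted p = 1). Phocaeicola_A_858004, a close relative of Bacteroides, held 0.0127%, 4.58%, 0.140%, 0%, 0.0176% and 0% with vancomycin and 39.8%, 6.16%, 5.10% and 0% with ampicillin. Its log2 difference of -4.99 ± 1.68 (SE) lay just outside the threshold (limma adjusted p = 0.0746), and 3 of 4 ampicillin samples were above all vancomycin samples. Prevotella, a leading genus at day 0, held 0.0424% to 8.04% with vancomycin and 0.0470% to 3.62% with ampicillin (log2 -0.42, adjusted p = 1), and both were lower than PBS by limma (log2 -4.32 and -3.90, adjusted p = 0.0024 and 0.0135).

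**Figure D3:**
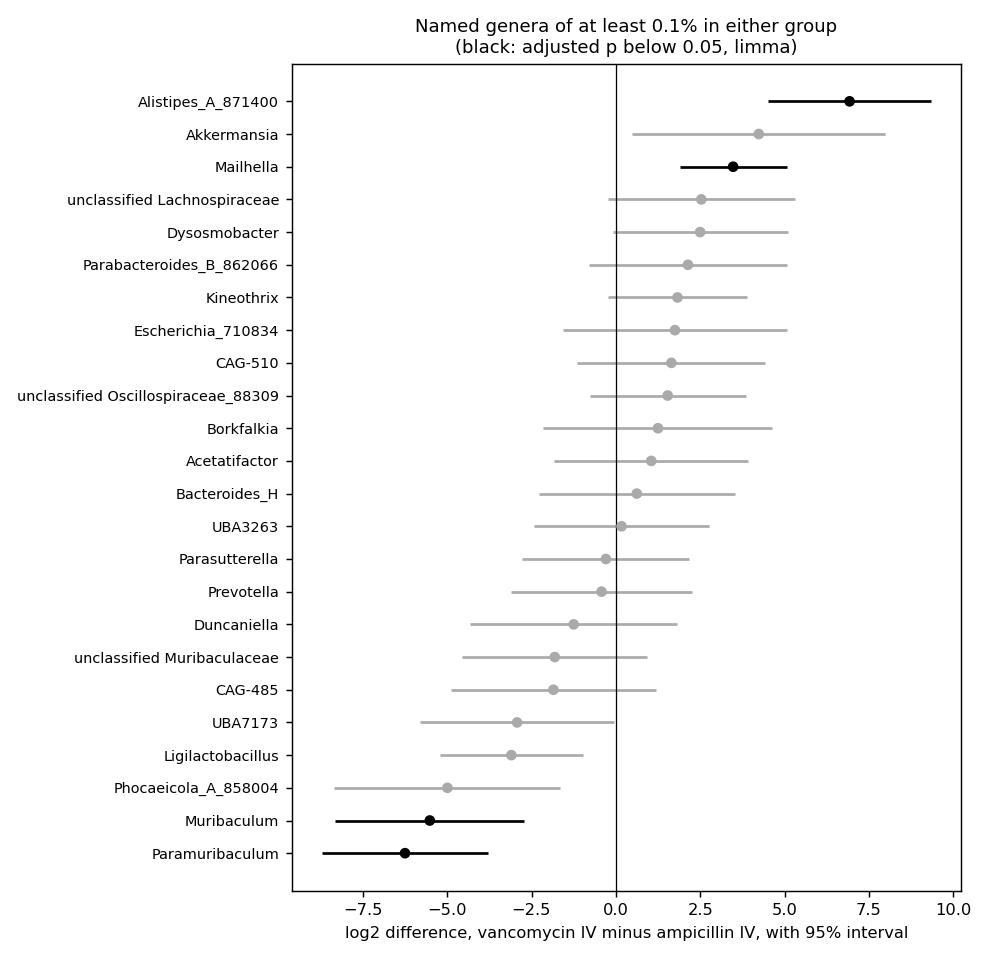
Log2 difference (horizontal axis, intravenous vancomycin minus intravenous ampicillin, percent plus 0.01) with its 95% interval for the 24 named genera with a mean of at least 0.1% in either group. The 4 genera drawn in black passed an adjusted p of 0.05, and grey genera such as Phocaeicola_A_858004 and Akkermansia have intervals that exclude 0 before adjustment only.

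At the level of the taxa as deposited, which name species where the authors' classification did, drugs that did not differ in a genus past the threshold differed in some of its taxa. This level was chosen for testing after the genus results and the species shares had been seen. Of 133 taxa tested in the same limma model, 10 passed between the drugs (7.52%), with 4 higher and 6 lower with vancomycin. The V4 stretch separates some species poorly, so these are names of the classification and not of isolates.

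Parabacteroides_B_862066 distasonis held 69.0%, 4.89%, 0.368%, 52.1%, 42.9% and 16.9% in vancomycin replicates 1 to 6. It held 0%, 0.387%, 0.840% and 0% in ampicillin samples and at most 0.0221% in PBS samples. Of 6 vancomycin samples, 5 were above all ampicillin samples, and the log2 difference was 7.41 ± 1.35 (SE; limma adjusted p = 1.7e-05), with 0.161 when only the 10 samples were fitted. Parabacteroides_B_862066 goldsteinii held 0.150%, 0.801%, 6.68% and 0% in ampicillin samples and 0.00717% to 2.20% with vancomycin (log2 -0.33, adjusted p = 1). An entry of this genus without a species name held 0.823%, 0%, 0% and 12.4% in ampicillin samples. It was at 0 in all 6 vancomycin samples. Whether its reads and those named distasonis come from different bacteria was not tested.

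Bacteroides_H rodentium was listed in 1 of 6 vancomycin samples, at 0.0130%, and held 18.2%, 1.24%, 0.592% and 0% in ampicillin samples (log2 -5.73 ± 1.22 SE; limma adjusted p = 0.000315, and 0.161 with the 10 samples alone). Bacteroides_H intestinalis held 4.11%, 0.828%, 0%, 19.7%, 16.2% and 32.5% in vancomycin replicates 1 to 6 and 2.47%, 0.110%, 0.565% and 0.185% in ampicillin samples, a difference that did not pass (log2 2.64, limma adjusted p = 0.425).

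Of the 10 taxa that passed among all 133 tested (7.52%), 5 were Muribaculaceae. Duncaniella muris was higher with vancomycin and the others were lower. The number of Muribaculaceae taxa tested is not given here, so this count is not a result about the family. Paramuribaculum sp001689565 was at 0 in all 6 vancomycin samples and held 0.631%, 0.690%, 0.189% and 9.58% in ampicillin samples and 0.135% to 2.16% in PBS samples. Its adjusted p was 2.9e-07 by limma and at most 0.00767 over 17 alternatives. Paramuribaculum intestinale and Paramuribaculum sp000431155 did not pass between the drugs. Both were lower than PBS with ampicillin by limma (log2 -8.03 and -5.50, adjusted p = 1.8e-09 and 0.000398). They were also lower than PBS with vancomycin (limma log2 -7.84 and -7.03, adjusted p = 6.2e-11 and 5.7e-07). UBA7173 sp004102805 held 0%, 1.09%, 2.44%, 0%, 0.0939% and 0.0173% with vancomycin and 5.62%, 1.96%, 8.97% and 17.2% with ampicillin (log2 -6.07 ± 1.42 SE; limma adjusted p = 0.00101), whereas UBA7173 sp002491305 held 0.0329% to 16.7% and 0.133% to 39.8% and did not pass (log2 -1.18, adjusted p = 1). Muribaculum intestinale held 0% to 0.800% with vancomycin and 1.11%, 5.58%, 10.3% and 0.272% with ampicillin (log2 -5.40; limma adjusted p = 0.00113). Neither UBA7173 sp004102805 nor Muribaculum intestinale passed within run ok122 or with the 10 samples alone.

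Duncaniella muris held 0%, 11.2%, 16.0%, 0.0422%, 0.596% and 0.277% in vancomycin replicates 1 to 6 and 0%, 0%, 0% and 0.0605% in ampicillin samples, against 0.871% to 3.28% in PBS samples (log2 4.95 ± 1.49 SE; limma adjusted p = 0.0215). It passed in 9 of 17 alternatives, and did not pass without vancomycin replicate 2, without replicate 3 or without both, the samples where it was highest. Muribaculum gordoncarteri (adjusted p = 0.0286) and Phocaeicola_A_858004 vulgatus (adjusted p = 0.0370) passed in 5 of 17 alternatives each. The remaining taxa past the threshold were Mailhella massiliensis, which makes up the whole genus here, and Alistipes_A_871400 sp002362235. The share of this Alistipes taxon was 0.0562% to 2.99% with vancomycin, 0% in all ampicillin samples and 0% to 0.586% in PBS samples, and it was higher with vancomycin than with PBS by limma (log2 4.54, adjusted p = 0.00011), although the genus as a whole was not.

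**Figure D4:**
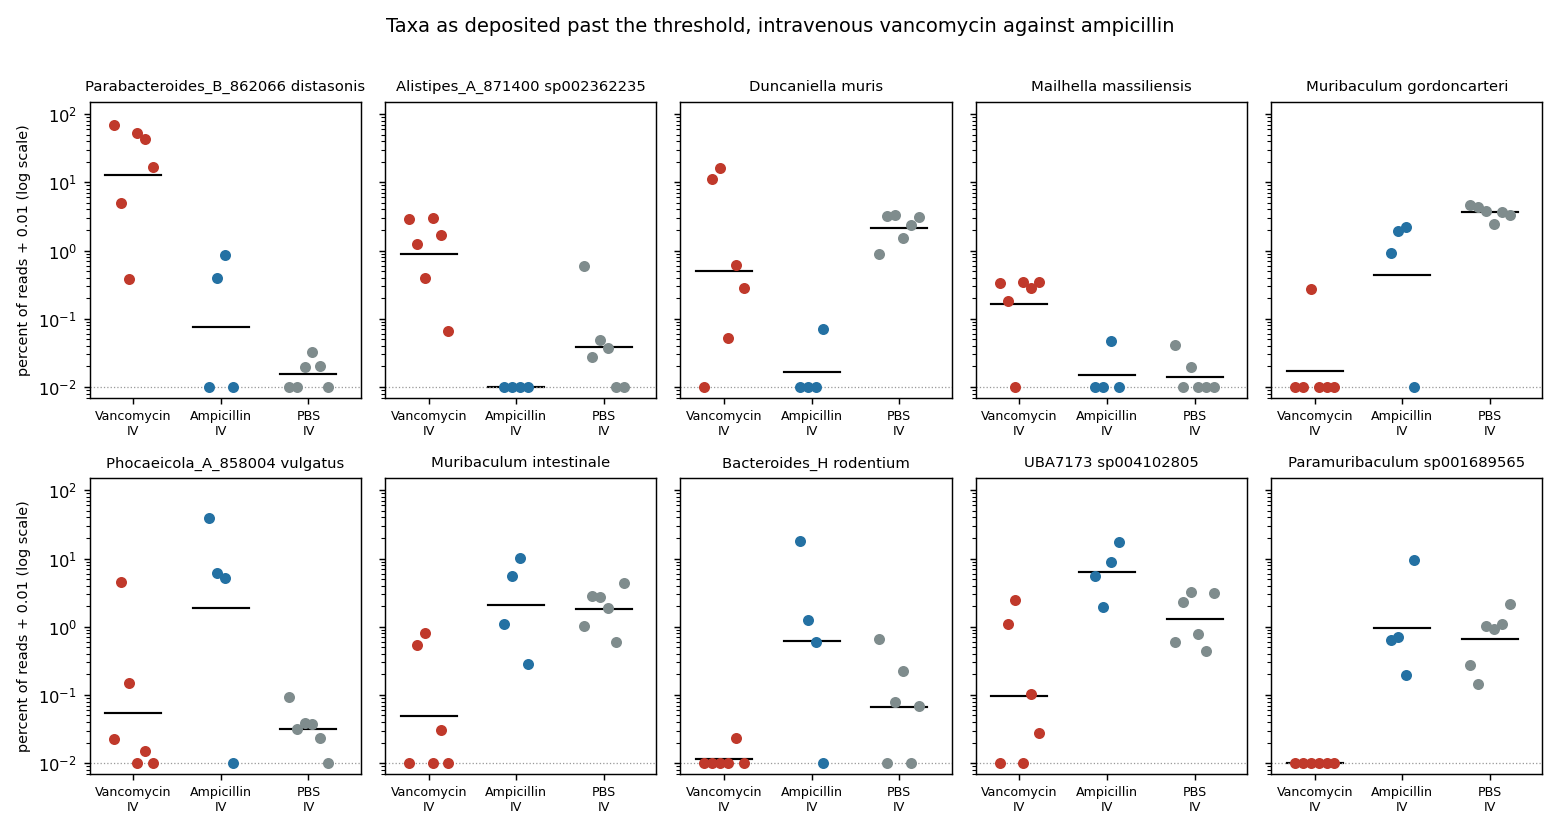
Percent of reads plus 0.01 on a log axis for the 10 deposited taxa past the threshold between the drugs, with 1 point per intravenous vancomycin, ampicillin and PBS sample, log-scale means as bars and a dotted line for taxa listed at 0. Parabacteroides_B_862066 distasonis reached 69.0% with vancomycin and at most 0.840% with ampicillin, and Paramuribaculum sp001689565 was at 0 in all vancomycin samples.

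Families were tested in the same way. Of the 39 families tested, 3 passed between the drugs (7.69%), all higher with vancomycin: Rikenellaceae, Lachnospiraceae and Desulfovibrionaceae. In these samples Rikenellaceae was Alistipes_A_871400 alone, so its result repeats that of the genus. Lachnospiraceae, producers of butyrate and other short-chain fatty acids, held 0%, 3.59%, 3.75%, 0.141%, 0.168% and 0.0864% in vancomycin replicates 1 to 6. The family was listed at 0 in every ampicillin sample, while PBS samples held 1.77% to 7.50%. So 5 of 6 vancomycin samples were above all ampicillin samples, with the highest shares in replicates 2 and 3. The fitted log2 difference was 4.73 ± 1.43 (SE; limma adjusted p = 0.0190). It did not pass without replicate 2 (3.98, adjusted p = 0.0769), without replicate 3 (3.97, adjusted p = 0.0972) or without both (2.83, adjusted p = 0.338). Of its 27 tested genera 0 passed in either direction (median log2 0.52). In this family 18 tested genera were listed in at least 1 vancomycin sample and 0 in any ampicillin sample. Over all 95 tested genera, 32 were listed with vancomycin and at 0 in every ampicillin sample, and 0 the other way round. The vancomycin group had more samples and deeper libraries, and the part of either in the family's count was not tested. Unclassified Lachnospiraceae held at most 1.22% with vancomycin, Kineothrix at most 0.329% and COE1 at most 0.0665%.

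Desulfovibrionaceae, many of which reduce sulfate to hydrogen sulfide, held 0.501%, 0.220%, 0%, 0.331%, 0.281% and 0.333% in vancomycin replicates 1 to 6. The family held 0%, 0%, 0.0872% and 0.0101% in ampicillin samples and 0.0468% to 0.210% in PBS samples. The log2 difference was 3.14 ± 0.95 (SE; limma adjusted p = 0.0190), and it passed in 12 of 24 alternatives, which do not include the fit within run ok122 (2.33, adjusted p = 0.181). Of its 3 genera 1 passed, Mailhella. Bilophila held at most 0.0891% and Desulfovibrio_R_446353 at most 0.0891% with vancomycin, and at most 0.0228% and 0.0265% with ampicillin, and neither passed.

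The Oscillospiraceae and relatives were low after both drugs. Their summed share was 0%, 0.0383% and 2.21% (lowest, median and highest) with vancomycin, 0%, 0%, 0.0111% and 0% with ampicillin, and 1.06% to 3.83% with PBS. Of 14 tested genera 0 passed between the drugs (median log2 0), Dysosmobacter, Lawsonibacter and Ruminiclostridium_E among them. Of the 39 genera of this list, tested or not, 6 were listed in any vancomycin sample and 1 in any ampicillin sample. This median is therefore set by genera at 0 with both drugs. Dysosmobacter, a fermenter of inositol to butyrate, was listed in 4 of 6 vancomycin samples at up to 0.800% and in 1 of 4 ampicillin samples at 0.0111% (log2 2.50, limma adjusted p = 0.560). Over all 95 tested genera, 32 were listed in at least 1 vancomycin sample and in 0 ampicillin samples, and 0 the other way round. After thinning to 1000 reads these counts were 27 and 2. The vancomycin group has more samples and deeper libraries, and the part of either in these counts beyond the thinning was not tested.

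Ligilactobacillus, a lactobacillus genus that includes species intrinsically resistant to vancomycin, held 0%, 0.0798%, 0.0254%, 0%, 0.147% and 0% in vancomycin replicates 1 to 6 and 0.814%, 0%, 0.148% and 2.58% in ampicillin samples. It was listed in 0 of 6 PBS samples. The log2 difference was -3.10 ± 1.07 (SE) with a limma adjusted p of 0.0746, just outside the threshold. Lactobacillus, Limosilactobacillus and Streptococcus were listed at 0 in all samples of both drugs, and of the 4 tested genera 0 passed (median log2 0).

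Akkermansia, a mucin degrader, was listed in 4 of 6 vancomycin samples, at 0.225%, 17.8%, 0.381% and 0.262% in replicates 1, 2, 3 and 5, and was listed at 0 in all ampicillin samples. The log2 difference of 4.23 ± 1.89 (SE) did not pass (limma adjusted p = 0.325). At day 0, mice of the later vancomycin group carried 0.00224% ± 0.00550 and mice of the later ampicillin group 0.497% ± 0.550 (SD, n = 6 each). As the change of each mouse since day 0, the difference between the drugs passed (log2 7.94, adjusted p = 0.0106). Borkfalkia, a Clostridia genus, held 0% to 0.904% with vancomycin and 0%, 0%, 0.0498% and 3.59% with ampicillin, and of the 2 tested genera of its list with CAG-552 0 passed (median log2 0.55).

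In the other lists 0 genera passed between the drugs: Bacteroidaceae (3 tested, median log2 -0.42), Tannerellaceae (1 tested), Enterobacteriaceae (1 tested), Akkermansiaceae (1 tested), Bifidobacteriaceae and Eggerthellaceae (2 tested, both at 0 in all samples of both drugs), bacteria without a cell wall (3 tested, median 0) and the list of common reagent contaminants (1 tested, Burkholderia). Of the 4 tested genera of Rikenellaceae and Marinifilaceae 1 was higher with vancomycin, Alistipes_A_871400, and Odoribacter_865974 was not. The Erysipelotrichaceae and relatives held no tested genus and reached 0.0762% with vancomycin. The reagent list summed to at most 0.0141% with vancomycin and 0.171% with ampicillin. Phyla with a Gram-negative envelope made up 91.5% to 99.9% of reads with vancomycin and 93.5% to 100% with ampicillin, ranges that overlap, against 88.5% to 94.7% with PBS.

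The same drugs given by mouth (PO), to 6 vancomycin and 5 ampicillin mice, served to ask whether the difference between them depended on the route. The difference between the drugs differed by route in 6 of 95 genera (6.32%), 2 more positive and 4 more negative by vein, as an interaction in the limma fit. Of the oral ampicillin samples, replicates 3 and 5 were led by Burkholderia, a genus of the reagent list, at 89.0% and 96.6% of reads, against at most 0.323% in the other 3. Without these samples, a choice made after seeing the data, 11 genera passed, and these included all 6. Without the taxa of the reagent list 11 passed, 5 of the 6 among them and Desulfovibrio_R_446353 not (adjusted p = 0.0764). Alistipes_A_871400 (interaction log2 8.11, adjusted p = 0.00022) and Mailhella (3.47, adjusted p = 0.0327) had a larger vancomycin excess by vein. By mouth, Alistipes_A_871400 held at most 0.0445% with vancomycin and 0.0665% with ampicillin, and Mailhella was listed at 0 in all 11 oral samples. The Mailhella interaction passed in 7 of 18 alternatives.

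Ligilactobacillus showed the largest of these interactions among the 95 genera (-11.39, limma adjusted p = 1.5e-09): by mouth it held 2.40% to 9.39% with vancomycin and at most 0.0563% with ampicillin, opposite in order to the injected drugs. Parasutterella, an asaccharolytic Burkholderiales genus, held 0.121% to 0.449% with intravenous vancomycin and 0.989%, 2.79%, 0.746% and 0% with intravenous ampicillin, but 0.187% to 21.9% with oral vancomycin and at most 0.107% with oral ampicillin (-7.63, limma adjusted p = 0.00076). Escherichia_710834 held 34.0% to 68.6% with oral vancomycin and at most 0.392% with oral ampicillin, so its excess with vancomycin was smaller by vein (-8.02, limma adjusted p = 0.0133, and 0.139 without vancomycin replicates 2 and 3). Desulfovibrio_R_446353 held 0.0980% to 0.608% with oral vancomycin and at most 0.0481% with oral ampicillin (-4.02, limma adjusted p = 0.0131). Within run ok122 this interaction did not pass (-2.62, adjusted p = 0.243), nor did that of Mailhella (2.51, adjusted p = 0.241). At family level 10 of 39 families showed an interaction (25.6%), Rikenellaceae (8.11, adjusted p = 9.3e-05) and Lachnospiraceae (8.46, adjusted p = 0.00042) among them. The Rikenellaceae value repeats that of Alistipes_A_871400. The difference between the drugs in Shannon index did not differ by route past the threshold (difference of -0.55, permutation p = 0.285, adjusted p = 0.428), and its sign turned without the reagent list (0.44, adjusted p = 0.705).

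**Figure D5:**
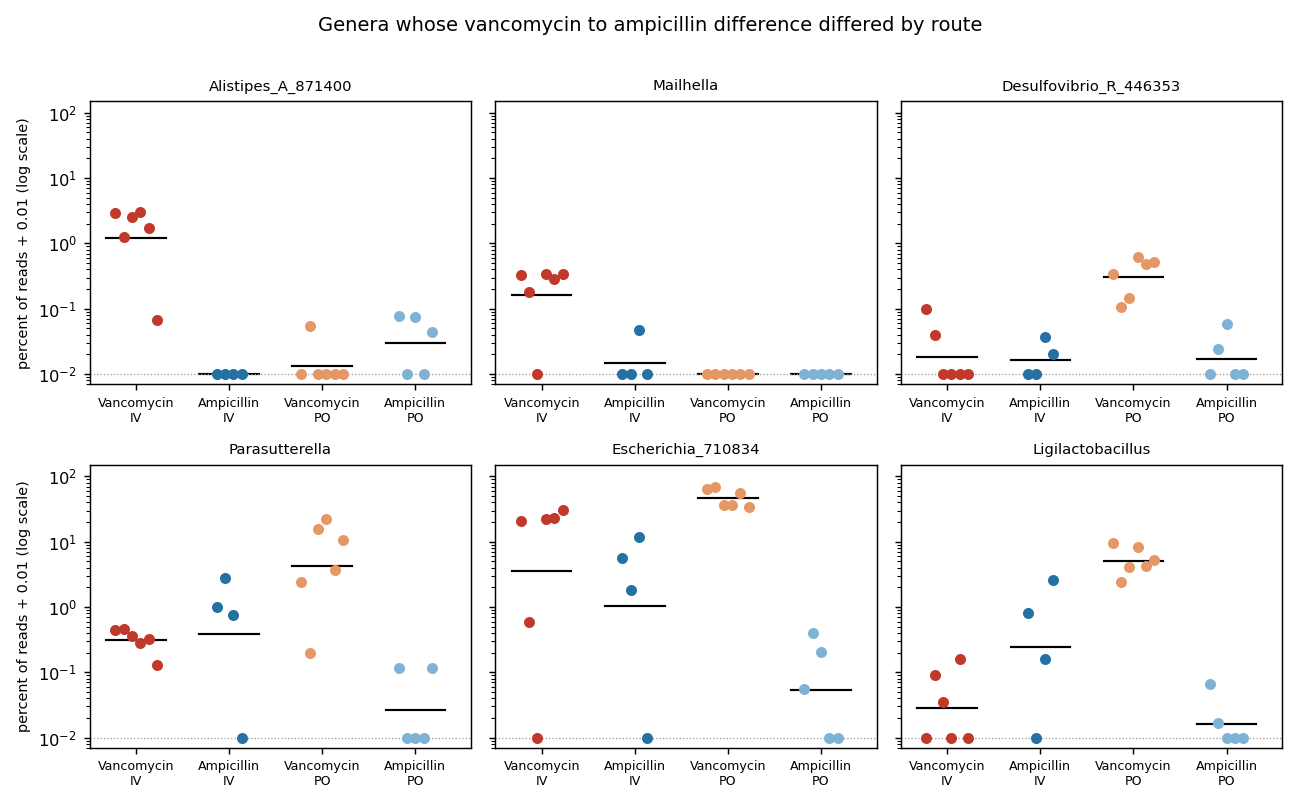
Percent of reads plus 0.01 on a log axis for the 6 genera whose vancomycin to ampicillin difference differed by route, with 1 point per sample for intravenous (IV) and oral (PO) vancomycin and ampicillin and log-scale means as bars. Ligilactobacillus was higher with vancomycin by mouth and not by vein, and Alistipes_A_871400 reached 2.99% with intravenous vancomycin and at most 0.0665% in the oral groups.

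Before treatment, 0 of 85 genera tested differed between the 6 mice later given intravenous vancomycin and the 6 later given intravenous ampicillin (0% at an adjusted p of 0.05 by limma, 4 at an unadjusted p below 0.05). Mailhella, Escherichia_710834 and Phocaeicola_A_858004 were not among the 85. At day 0 Mailhella was listed in 2 of the later vancomycin mice and 1 of the later ampicillin mice. At family level 2 of 32 passed (6.25%): Akkermansiaceae, lower in the later vancomycin mice, and CAG-314, higher in them at 0.104% against 0% (both adjusted p = 0.0496). Paramuribaculum was 8.16% ± 1.69 in the later vancomycin mice and 4.03% ± 1.61 in the later ampicillin mice (SD, n = 6 each), the opposite order to day 4. Day 0 libraries of the later vancomycin mice held 407 to 37123 reads and those of the later ampicillin mice 629 to 10561, and 1 of each group held under 1000. The ampicillin group had 6 libraries at day 0 and 5 at day 4, and no day 0 libraries were averaged in this test.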

How the data were processed

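Composition tables of the stool 16S rRNA gene (V4 amplicons, 30 to 35 PCR cycles, Illumina MiSeq, 2 DNA extraction kits, per the labels' protocols) were deposited for 198 libraries and 488 taxa. The authors scaled each library's signal to a total of 100000. How reads were filtered, denoised and classified is not given in the sources used here. Values were divided into percent, and empty cells were taken as 0. All values (100%) were whole multiples of 1 read within 0.02 reads or a relative 1e-05, which gave each library's depth. The smallest value was 2 reads in 183 of 198 libraries, so single reads had been left out of these and the depths are lower limits. PCR reads are not independent molecules.

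Taxa were summed to 316 genera and 107 families. Genera and families listed in at least 20% of day 4 samples were tested on log2(percent + 0.01) with limma 3.58.1 (R 4.3.3; lmFit, eBayes with trend), with 1 mean for each of 18 groups over all 89 day 4 samples and Benjamini-Hochberg adjustment over all features tested. Single values were tested by exact permutation, or 100000 permutations for the route, adjusted over 3 tests, in Python 3.11.15 with numpy 2.4.6, pandas 2.3.3 and scipy 1.17.1. Replicates are mice by their sample names. Ampicillin replicates 3 and 4 (chi-square per degree of freedom 1.29, p = 0.153, against 243 to 1376 for other ampicillin pairs) were averaged. Genera were named by rule: those past the threshold, the 10 most abundant, the top 3 of each sample, up to 4 tested genera per list and the strongest route interactions, 42 in all. The lists and this comparison were chosen with earlier results of these data known. The limma step was tested on simulated data. Alternatives were other pseudocounts (0.001 and 0.1), presence filters, scalings, run as a block or within a run, the change since day 0, thinning to 1000 reads and leaving out each sample. Added after seeing the data were the taxa as deposited, leaving out vancomycin replicates 2 and 3, and leaving out oral ampicillin replicates 3 and 5 or the reagent list in the route comparison.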

Additional observations from a re-analysis of the deposited data

Results flagged for a closer look

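A sample far from the others of its group was found in 5 of 40 groups of values examined. Chance gives about 1 in 20 for normally spread values. These shares are skewed with many at 0, so the 2 rates cannot be compared. Alistipes_A_871400 was lowest in vancomycin replicate 6, at 0.0562% against 1.25% or more in the other 5 samples. Mailhella was at 0% in vancomycin replicate 3 and at 0.170% or more in the others. CAG-510, a Lachnospiraceae genus, reached 2.59% in vancomycin replicate 2, and Acetatifactor, of the same family, 0.774% in vancomycin replicate 3. Acetatifactor was listed in no other vancomycin sample, which is enough to flag it. Bacteroides_H was 0.185% in ampicillin replicate 5 and 18.6% or more in the other ampicillin samples.

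The difference between vancomycin and ampicillin differed by route, by limma's interaction term (intravenous minus oral, log2), in 6 genera. It was 8.11 for Alistipes_A_871400, 3.47 for Mailhella, -4.02 for Desulfovibrio_R_446353, -11.39 for Ligilactobacillus, -7.63 for Parasutterella and -8.02 for Escherichia_710834.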

How the results depend on the processing

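Depth and 4 ampicillin samples limit what can be seen, and the run could be compared within ok122 only. No paired analysis was possible between vancomycin and ampicillin mice because replicate numbers only name mice within a group, and each mouse's change since its own day 0 was used as an alternative. The 4 genera past the threshold became 2 with only the 10 samples in the fit, 2 within run ok122, 7 as the change since day 0 and 10 among the taxa as deposited, and leaving out 1 sample gave 3 to 6. The 3 families became 1 with only the 10 samples, 5 within run ok122 and 1 to 4 leaving out 1 sample, with 1 without vancomycin replicate 2, ampicillin replicate 1 or ampicillin replicate 5. The 6 route genera became 11 without oral ampicillin replicates 3 and 5 and 11 without the reagent list, and 4 to 7 leaving out 1 sample. At day 0, 1 genus passed with no filter, against 0. The composition R2 passed as 0.254 on the Aitchison distance and 0.236 on the Jaccard distance, and was 0.141 to 0.281 leaving out 1 sample. The Shannon difference was -0.28 to 0.01 (-0.284 to 0.00572) and its route difference -0.71 to -0.42 leaving out 1 sample. The Shannon difference was 0.35 at family level and 0.13 within run ok122, and its route difference 0.44 without the reagent list, and 0 of these passed. Of 1166 recomputed values of named genera and families, 1106 stayed on their side of the threshold, 44 no longer passed, 16 newly passed and 0 of those that passed changed sign. The causes were not tested.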
